A study of Mus musculus with 6 samples.

Results

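Adipocyte progenitor and fibroblast markers were examined in the epididymal white adipose tissue (eWAT) of obese db/db mice and lean db/+ mice. The set held 10 genes, chosen by name: Pdgfra, Pdgfrb, Cd34, Ly6a, Dpp4, Thy1, Dcn, Pi16, Zfp423 and Ebf2. Matching on the gene symbol gave 16 of the 23556 probes on the array, and these covered 9 of the 10 genes, since no probe was named Cd34. Of these 9 genes, 8 had enough values for the comparison of the groups, against 17024 genes in all; the single Dcn probe had a value on 1 array only.

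White fat holds, beside its adipocytes, a stroma of fibroblasts, vessels and immune cells, and new adipocytes arise from PDGF receptor-bearing fibroblasts of this stroma. In mouse fat, progenitors are commonly sorted by PDGFRα, CD34 and Sca-1, the product of Ly6a. DPP4 and PI16 mark an interstitial population held to lie upstream of committed preadipocytes, PDGFRβ marks perivascular and other mural progenitors, and Zfp423 and Ebf2 encode transcription factors of preadipocyte commitment and of the beige and brown lineage.

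The obese animals were 3 db/db mice, homozygous for the db mutation of the leptin receptor gene and described by the submitters as obese and strongly hyperglycaemic, with modestly raised insulin. The controls were 3 lean db/+ mice, which carry 1 copy of the same mutation. All were 10 weeks old and, per the file headers, all had received a vehicle. No source used here states their sex, which epididymal tissue implies was male, or gives their strain background. The tissue was whole eWAT, taken as 1 sample per mouse, and each mouse had an array of its own. RNA of the mouse was labelled with Cy5 and set against a Cy3-labelled pool of lean vehicle-treated eWAT, with no dye swap, so a value is the log2 ratio of mouse over pool and a difference is db/db minus db/+ on that scale.

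Arrays gave 23355 to 23506 probes with a value. The SD of the log2 ratio over all probes was 0.526 to 0.680 on db/db arrays and 0.235 to 0.279 on db/+ arrays, and the median ratio was 0 on every array. Lepr, the mutated gene, was dim, with Cy5 means of 0.0767 in db/db mice and 0.0867 in db/+ mice and a difference of −0.12 ± 0.31 (SE); the mutation alters splicing, and the position of this probe within the gene is not given, so it does not check the labels. Libraries differed in epididymis transcripts: the median log2 ratio of 13 epididymis genes was −1.74, 3.85 and 4.09 in db/db mice 1 to 3, against 0.70, 0.06 and −1.82 in db/+ mice 1 to 3. Their summed Cy5 intensity was 1.65 to 189.08 in db/db mice and 1.61 to 13.87 in db/+ mice. Their median difference was 2.40, and 1 of the 13 was called, Cst8, a cystatin of the epididymis, at 3.98 ± 0.17. That probe had no value in db/db mouse 1 and db/+ mouse 3, the mice lowest in these transcripts, so its test set 2 mice against 2. The summed intensities of those mice leave it out. Called epididymis genes numbered 7 without db/db mouse 1 and 0 without any other mouse. Results on the markers are also given for db/db mouse 1 alone, the db/db mouse low in these transcripts, as a difference from the 3 db/+ mice. With 1 mouse in the db/db arm, the spread between replicates in that fit is that of the db/+ mice only. Mice are numbered by the replicate numbers of the labels.

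Promoters of 2 surface markers are shown because the gene with the largest difference, Ebf2, encodes a transcription factor whose motif can be looked for in them. The EBF family binds a palindromic pattern made of TCCC, any 2 bases and GGGA, called the palindrome here. This pattern reads the same on both strands apart from the 2 middle bases. RefSeq promoters of build GRCm38.p6 were found for 5 of the 10 genes, as 6 sequences of 250 bases ending at the gene's start. The palindrome stood in 1 of these 6, that of Dpp4, and in 0.779% of all 32851 promoters searched. The Dpp4 promoter, at chr2:62412232-62412481 on the minus strand, and the Pdgfra promoter, at chr5:75152001-75152250 on the plus strand, read 5′ to 3′ as follows, with the palindrome in capitals.
Dpp4: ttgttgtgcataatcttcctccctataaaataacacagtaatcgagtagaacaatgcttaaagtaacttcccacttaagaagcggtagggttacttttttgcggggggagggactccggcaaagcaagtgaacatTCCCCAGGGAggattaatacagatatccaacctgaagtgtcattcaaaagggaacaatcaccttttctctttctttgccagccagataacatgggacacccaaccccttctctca
Pdgfra: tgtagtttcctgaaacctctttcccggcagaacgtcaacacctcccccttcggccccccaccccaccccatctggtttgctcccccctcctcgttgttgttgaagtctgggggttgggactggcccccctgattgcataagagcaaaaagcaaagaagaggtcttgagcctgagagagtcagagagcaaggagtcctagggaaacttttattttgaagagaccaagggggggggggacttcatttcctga
A match describes letters and is no evidence of binding, and its absence from a window says nothing about the factor.

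In db/db eWAT the markers did not move as a block. Ly6a was lower, Pdgfra had higher values with a p at the edge of the threshold, Ebf2 showed the largest difference with a wide error, and Pdgfrb, Dpp4, Thy1, Zfp423 and Pi16 had intervals that included no difference. With limma and Benjamini-Hochberg adjustment over all genes at a threshold of 0.05, 1 of the 8 measured genes was called, Ly6a, which was lower; 0 were called higher, and 3 had an unadjusted p under 0.05. Over all genes, 6.68% were called, 2.92% higher and 3.77% lower in db/db, and 23.2% had an unadjusted p under 0.05. The share of all genes called was 20.2% without db/db mouse 1 and 0.318% to 3.4% without any other mouse. The median difference of the 8 genes was −0.05, beside a median of 0.00 over all genes. The median size of the difference, regardless of sign, was 0.358 for the 8 genes and 0.195 for all genes. Mean intensities reached 0.1 in both channels for 7 of the 8 genes, against 9781 of all 17024. These medians thus compare sets of unlike brightness, and the part of brightness was not tested. Tested probe by probe, 0 of 15 marker probes were called, against 5.44% of all probes. The call of Ly6a and the miss of Pdgfra both lie near the threshold. With loess within arrays they changed places: Pdgfra was called (adjusted p = 0.0367) and Ly6a was not (0.0559).

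**Figure D1:**
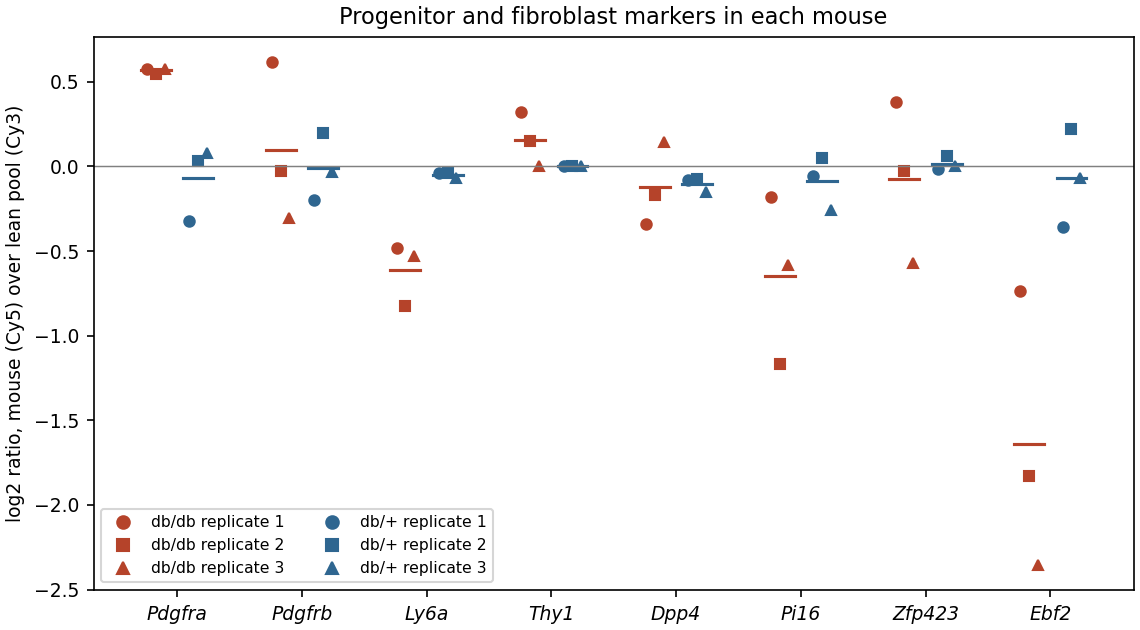
The log2 ratio of each mouse over the lean pool (vertical axis) is plotted for the brightest fully measured probe of 8 markers, db/db in red and db/+ in blue, with marker shapes for replicates and bars for group means. The groups separate for Pdgfra, Ly6a and Ebf2, and the db/db mice of Ebf2 spread from −0.74 to −2.36.

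Among the receptors, Pdgfra, which encodes PDGF receptor α and defines most fibroblasts and adipocyte progenitors of fat, was higher in each db/db mouse than in any db/+ mouse. Its bright probe had Cy5 intensities of 9.79, 9.09 and 9.95 on the db/db arrays and 5.42, 7.5 and 7.04 in db/+ mice 1 to 3. The log2 ratios over the pool were 0.58, 0.55 and 0.58 in db/db mice 1 to 3, against −0.32, 0.03 and 0.08 in the db/+ mice. The 3 db/db mice were nearly equal, with an SD of 0.0173, while the db/+ mice had an SD of 0.219, set mostly by mouse 1. The difference was 0.64 ± 0.12 (SE), or 1.56-fold, with a 95% interval of 0.33 to 0.95 and an adjusted p of 0.05001 that fell just short of the threshold: Pdgfra ranked 1139 by p among all genes, and 1138 were called.

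The receptor's direction held in all 20 alternative settings, with differences of 0.16 to 0.71. On the bright probe the groups did not overlap, so leaving out a mouse could not reverse it. The receptor passed the threshold in 8 of the settings. Beside loess these were the series matrix (adjusted p = 0.0498), an offset of 0.05 on the intensities (0.0472), a minimum of 0.1 in both channels (0.0256), the brightest probe by mean log2 intensity (0.0499), a trend and robust variance model (0.0411), array weights (0.0425) and 1 omission of a mouse. Without db/+ mouse 1 the adjusted p was 0.0380 and the difference 0.51; leaving out any other mouse gave adjusted p of 0.0654 to 0.136. In db/db mouse 1 alone the difference was 0.65, and with the epididymis list as a covariate it was 0.68 with an adjusted p of 0.0912. A second, dim Pdgfra probe, designed on a cDNA clone, gave the opposite sign: its ratios were 0.00, −0.44 and −0.07 in db/db mice and 0.10, 0.37 and 0.00 in db/+ mice, a difference of −0.33 ± 0.16 with an adjusted p of 0.328 in the fit over probes. Averaging both probes brought the difference to 0.16. Its Cy5 intensity averaged 0.2 ± 0.0557 in db/db mice and 0.333 ± 0.179 in db/+ mice (SD, n = 3 each).

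Pdgfrb, the PDGF receptor of mural cells and perivascular progenitors, had 4 probes and no difference beyond the spread between mice. Cy5 intensities of the brightest were 7.91, 4.83 and 4.16 on the db/db arrays, against 4.42, 5.21 and 5.03 in the db/+ mice. Its ratios were 0.62, −0.03 and −0.30 in db/db mice 1 to 3, and −0.20, 0.20 and −0.03 in db/+ mice. The first db/db mouse thus lay above all db/+ mice and the third below them. The second probe repeated this pattern, with 0.61, −0.09 and −0.31 in db/db mice. The difference was 0.11 ± 0.27 with a 95% interval of −0.60 to 0.81 and an adjusted p of 0.862, and it was −0.15 without db/db mouse 1 and 0.63 in db/db mouse 1 alone. Probes 2 and 3 gave differences of 0.10 each, and the dimmest, with mean Cy5 intensities of 0.0367 in db/db mice and 0.0667 in db/+ mice, gave −0.38.

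**Figure D2:**
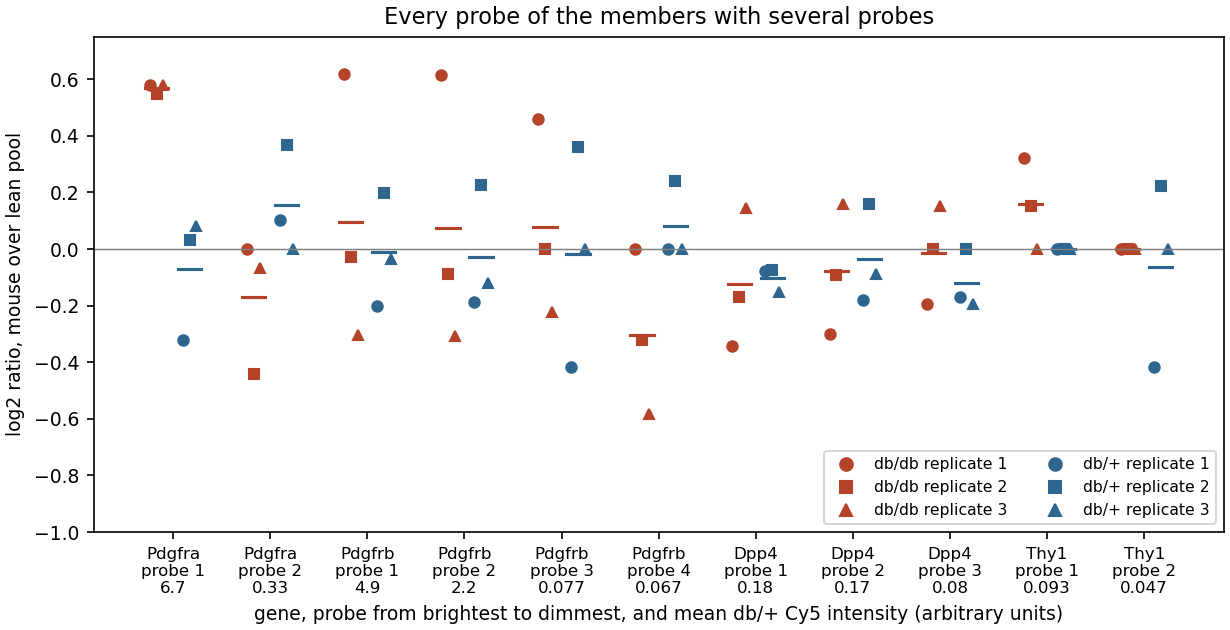
Log2 ratios of each mouse over the lean pool (vertical axis) are plotted for every probe of Pdgfra, Pdgfrb, Dpp4 and Thy1, ordered from brightest to dimmest within a gene, with the mean db/+ Cy5 intensity under each name and bars for group means, db/db in red and db/+ in blue. The bright Pdgfra probe and its dim one differ in sign, and db/db replicate 1 is the highest db/db mouse on all 4 Pdgfrb probes.

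The ligands of these receptors were measured in full. Of 4 PDGF genes, 0 passed the test, and all 4 differences were negative, with a median of −0.12. Pdgfd, which signals through PDGFRβ, showed −0.36 ± 0.11 with an adjusted p of 0.130. Pdgfa, the main ligand of PDGFRα, showed −0.12 ± 0.14 with an adjusted p of 0.637. In mural cells, where Pdgfrb is a defining gene, 2 of 13 pericyte and smooth muscle markers were called, both lower: Steap4, a metalloreductase, by −1.73 ± 0.30 and Kcnj8, a potassium channel subunit, by −1.13 ± 0.17. Their list had a median of −0.10, but its differences ran from −1.73 to 0.79, with 5 positive and 8 negative. The median therefore does not describe the single genes. Their summed Cy5 intensity was 14.2 to 19.5 in db/db mice and 21.6 to 24.8 in db/+ mice. Leaving out 1 mouse changed the count of called mural genes to 5 without db/db mouse 1 and to 0 without any other mouse. The part of mural cells in the Pdgfrb values was not tested.

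Ly6a, which encodes the surface protein Sca-1 used to sort progenitors, fell in db/db eWAT. Cy5 intensities were 7.44, 5.85 and 7.34 on the db/db arrays, against 10.4, 10.24 and 9.79 in db/+ mice 1 to 3. The ratios were −0.48, −0.83 and −0.53 in db/db mice 1 to 3, while the db/+ mice stayed at −0.04, −0.04 and −0.07. All 3 db/db mice lay below all db/+ mice, whose SD was 0.0161. The difference was −0.56 ± 0.10, a level of 0.676 times that of db/+ mice, with a 95% interval of −0.83 to −0.30 and an adjusted p of 0.0475. In whole tissue, fewer cells of a type and less RNA per cell cannot be told apart.

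Ly6a stayed negative in all 20 alternatives, at −0.68 to −0.28. Its groups did not overlap, so leaving out a mouse could not change the sign. The call was kept in 11 alternatives, but several of these reused the ratios of its only probe. They were centring of the arrays, the mean of all probes, the brightest probe by mean log2 intensity and, nearly so, the series matrix. Another of the 11 was db/db mouse 1 alone, where the spread was that of the db/+ mice only. The call was lost without db/db mouse 3 (adjusted p = 0.1004) and without db/+ mouse 1, 2 or 3 (0.150, 0.157 and 0.173), and it held without db/db mouse 1 or 2 (0.0312 and 0.0336). It was also lost with loess (0.0559), quantile normalization (0.345) and Cy5 alone (0.161), and with the epididymis list as a covariate, where the difference was −0.50 and the adjusted p 0.1. In db/db mouse 1 alone the difference was −0.43. Sca-1 is also carried by endothelial cells and lymphocytes. Of 11 endothelial markers, 1 was called, Egfl7, a vessel-secreted matrix protein that fell by 1.01 ± 0.17, and all 11 differences were negative, with a median of −0.51. The count of called endothelial genes was 3 without db/db mouse 1, 0 without any other mouse and 0 with the epididymis covariate. Their summed Cy5 intensity was 15.6 to 29.0 in db/db mice and 31.9 to 43.9 in db/+ mice. The part of endothelial cells in the Ly6a values was not tested.

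Thy1, the GPI-anchored glycoprotein CD90 of fibroblasts and T cells, was dim on both of its probes. Its brighter probe had a Cy5 mean of 0.0900 ± 0.0173 in db/db mice and 0.0933 ± 0.0252 in db/+ mice (SD, n = 3 each), a level at which the deposited steps of 0.01 set the ratios. Ratios were 0.32, 0.15 and 0.00 in db/db mice 1 to 3, and 0.00 in all 3 db/+ mice. The groups thus met at 0, and the other probe read 0.00 in all db/db mice and −0.42, 0.22 and 0.00 in db/+ mice. The difference was 0.16 ± 0.09 with a 95% interval of −0.07 to 0.39 and an adjusted p of 0.362. In db/db mouse 1 alone it was 0.32, set against 3 db/+ values without spread, and with Cy5 alone it was −0.04. Of 12 T cell genes, which mark another source of Thy1, 1 was called: Il7r, the interleukin-7 receptor, rose by 2.90 ± 0.34. That count was 0 without db/db mouse 3 or any one db/+ mouse, and 1 without db/db mouse 1 or 2. Their median was 0.01, their summed Cy5 intensity was 1.39 to 1.72 in db/db mice and 1.07 to 1.40 in db/+ mice, and 5 of them had a mean at or below 0.05 in each group.

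Neither marker of interstitial progenitors passed the test. Pi16, a peptidase inhibitor family member of uncertain function in fat, had Cy5 intensities of 0.74, 0.32 and 0.50 on the db/db arrays and 0.77, 0.85 and 0.61 in db/+ mice. The ratios were −0.18, −1.17 and −0.58 in db/db mice 1 to 3, against −0.06, 0.05 and −0.26 in db/+ mice 1 to 3. Mice 2 and 3 of db/db lay below all db/+ mice, and db/db mouse 1 lay among them. The difference of −0.56 ± 0.28 was of the same size as that of Ly6a, but its 95% interval of −1.27 to 0.16 included 0 and its adjusted p was 0.303. It rested on db/db mice 2 and 3: the difference was −0.10 in db/db mouse 1 alone, −0.79 without that mouse and −0.30 without db/db mouse 2. With the epididymis list as a covariate it was −0.34, with an adjusted p of 0.568.

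Dpp4, the dipeptidyl peptidase CD26, had 3 probes with mean Cy5 intensities under 0.2 in both groups. Ratios of the brightest were −0.34, −0.17 and 0.14 in db/db mice 1 to 3, and −0.08, −0.07 and −0.15 in db/+ mice. Its db/db mice spread to both sides of the db/+ mice. The difference was −0.02 ± 0.13, with a 95% interval of −0.37 to 0.33 and an adjusted p of 0.979, and the other probes gave −0.04 and 0.11. The difference was 0.09 without db/db mouse 1, −0.15 without db/db mouse 3 and −0.24 in db/db mouse 1 alone.

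Among 13 further genes of the DPP4+ interstitial population, 1 rose, 2 fell and 10 did not pass, with a median of −0.14. Cd9, a tetraspanin that macrophages also express, rose by 1.64 ± 0.10 (adjusted p = 0.00725). Efhd1, a mitochondrial calcium-binding protein, fell by 1.25 ± 0.15, and Tppp3, a tubulin-binding protein, fell by 1.16 ± 0.21. Wnt2, a secreted Wnt ligand of this population, had a difference of 0.92 ± 0.18 with an adjusted p of 0.0559. Macrophage markers moved beside Cd9: 5 of 13 were called higher, with a median of 0.76 and a summed Cy5 intensity of 79.1 to 135 in db/db mice and 43.2 to 58.6 in db/+ mice. Called macrophage genes numbered 6 without db/db mouse 1 and 1 to 2 without any other mouse. The part of macrophages in the Cd9 value was not tested. The count of called interstitial genes was 7 without db/db mouse 1, 2 without db/db mouse 2, 1 without db/db mouse 3 and 1, 1 and 0 without db/+ mouse 1, 2 and 3 in turn.

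Dcn encodes decorin, a small proteoglycan that coats collagen fibrils and is among the most abundant fibroblast transcripts. It had a value on 1 of the 3 db/db arrays and on none of the db/+ arrays. There its Cy5 intensity was 21.3 beside a pool intensity of 39.5, a log2 ratio of −0.89, and the authors' deposited table gives that ratio a p of 0.04. No comparison of groups was made, and no source used here says why the other values are absent.

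Ebf2, a transcription factor that marks brown and beige adipocyte precursors, had the largest difference of the set. Cy5 intensities were 0.78, 0.34 and 0.26 on the db/db arrays, against 1.04, 1.60 and 1.20 in db/+ mice 1 to 3. The log2 ratios were −0.74, −1.83 and −2.36 in db/db mice 1 to 3, and −0.36, 0.22 and −0.07 in db/+ mice. Every db/db mouse lay below every db/+ mouse, yet the db/db mice spanned more than the gap between the groups, with an SD of 0.826. The difference was −1.57 ± 0.46, a level of 0.336 times that of db/+ mice, with a 95% interval of −2.77 to −0.37, an unadjusted p of 0.0201 and an adjusted p of 0.124. In size it was at percentile 98.0 of all genes. In the authors' deposited table, which tests each array against the pool, Ebf2 had p-values of 7.27e-04, 6.08e-14 and 3.8e-25 on the db/db arrays.

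Among db/db mice, the Ebf2 values moved with other measures of the same mice. The 2 db/db mice lowest for Ebf2, mice 2 and 3, were those high in epididymis transcripts. In db/+ mice 1 to 3 the epididymis median was 0.70, 0.06 and −1.82, and mouse 3, the lowest, was not the highest for Ebf2. Endothelial list medians, −0.32, −0.64 and −0.95 in db/db mice 1 to 3, fell in the Ebf2 order. Committed preadipocyte medians, −0.21, −0.65 and −1.02, did so too. Adipocyte genes also followed the Ebf2 order in db/db mice. Their list medians were −1.31, −1.67 and −2.32 in db/db mice 1 to 3, against −0.09, 0.00 and −0.03 in db/+ mice. Of 14 adipocyte genes, 7 were called lower and 1 higher. Called adipocyte genes numbered 11 without db/db mouse 1 and 0 to 3 without any other mouse. With the epididymis list as a covariate the Ebf2 difference was −1.06 with an adjusted p of 0.136. In db/db mouse 1 alone it was −0.67. Without db/db mouse 1 it was −2.03 with an adjusted p of 0.0211, and leaving out any other mouse gave adjusted p of 0.236 to 0.318. The part of epididymis tissue and of adipocyte RNA in the Ebf2 values was not tested beyond these figures.

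Both related factors on the array had negative differences that did not pass the test. Ebf1, which also acts in adipogenesis, had ratios of −0.19, −0.93 and −1.24 in db/db mice 1 to 3, and −0.14, 0.34 and −0.19 in db/+ mice, a difference of −0.79 ± 0.32 with an adjusted p of 0.239. Ebf3 had −0.51, −1.08 and −1.49 in db/db mice, against −0.13, 0.12 and −0.12 in db/+ mice, a difference of −0.99 ± 0.27 with an adjusted p of 0.110. In all 3 factors, db/db mouse 1 was the highest and mouse 3 the lowest of the db/db mice. Cross-hybridisation between family members was not tested.

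Zfp423, a zinc-finger factor of preadipocyte commitment that binds EBF proteins, had a Cy5 mean of 2.26 ± 0.720 in db/db mice and 2.28 ± 0.0850 in db/+ mice (SD, n = 3 each). Ratios were 0.38, −0.03 and −0.57 in db/db mice 1 to 3, and −0.01, 0.06 and 0.00 in db/+ mice. As with Pdgfrb, db/db mouse 1 lay above and mouse 3 below all db/+ mice. The difference was −0.09 ± 0.25, with a 95% interval of −0.75 to 0.57 and an adjusted p of 0.883. It was 0.16 without db/db mouse 3 and 0.37 in db/db mouse 1 alone.

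**Figure D3:**
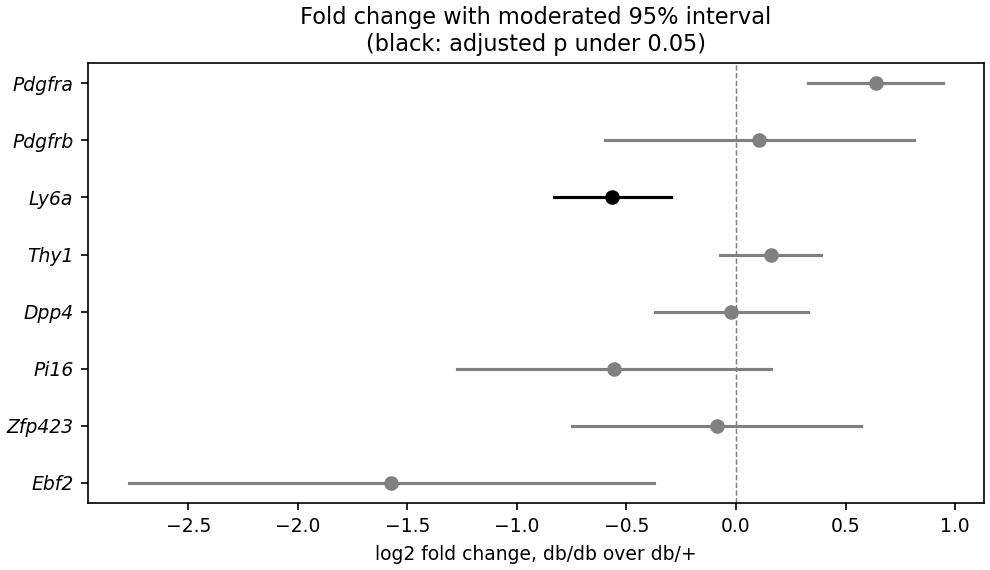
Differences between db/db and db/+ (horizontal axis, log2 scale) are plotted with their moderated 95% intervals for the 8 measured markers, the called gene in black and the others in grey. The intervals of Pdgfra, Ly6a and Ebf2 do not reach 0, and that of Ebf2 runs from −2.77 to −0.37.

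The set was more variable among db/db mice than among db/+ mice for 7 of the 8 genes, Pdgfra being the exception. The matching share of all genes was not counted. For Thy1 the SD was 0.161 in db/db mice and 0 in db/+ mice, on a dim probe whose ratios move in steps. The within-group SD was 0.496 in db/db mice and 0.158 in db/+ mice for Pi16, 0.477 and 0.0402 for Zfp423, 0.472 and 0.201 for Pdgfrb, and 0.187 and 0.0161 for Ly6a, in that order of groups. Over all genes the median SD was 0.198 in db/db mice and 0.105 in db/+ mice, so the typical gene was also more variable in db/db mice. The groups did not overlap for 3 of the 8 genes, against 26.1% of all genes measured on 6 arrays. In the authors' deposited table, the p against the pool was under 0.01 on all 3 db/db arrays for Ebf2 and Ly6a, on 2 for Pi16 and the bright Pdgfra probe, and on 1 for Zfp423 and each of the brighter Pdgfrb probes. It was under 0.01 on 0 db/+ arrays for every marker probe with a value there.

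Profiles over the 6 mice were set against each other by the root mean square difference of their log2 ratios, where 0 means identical values in every mouse. The closest pair within the set was Pdgfrb and Zfp423, at 0.174, followed by Ly6a and Pi16, at 0.206. The farthest was Pdgfra and Ebf2, at 1.64. Among 7996 other genes with a mean Cy5 intensity of at least 0.2, the nearest to Ly6a were Ttc14 (0.0635), Ifrd2 (0.0703) and Dguok (0.0813). Those nearest to Ebf2 were 9430085L16Rik (0.124), Smoc1 (0.197) and Lgals12 (0.216). Pdgfra lay closest to Dusp8 (0.0875), Bcl2l11 (0.0888) and Cpt1a (0.0895). All share the same 6 arrays, and with 6 values near profiles also arise among unrelated genes.

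Other stromal genes were counted in lists that exclude the markers above. Of 31 pan-fibroblast genes, 3 rose, 1 fell and 27 did not pass, with a median of 0.12. S100a4, a calcium-binding protein also abundant in macrophages, rose by 1.82 ± 0.26. Ogn, the small proteoglycan osteoglycin, fell by 1.09 ± 0.10. Prrx1, a homeobox factor of mesenchyme, rose by 0.92 ± 0.06, and Bgn, the proteoglycan biglycan, rose by 0.20 ± 0.03. The Prrx1 probe was dim, with Cy5 means of 0.117 in db/db mice and 0.0767 in db/+ mice. At that level the deposited steps of 0.01 set its ratios, which limits what its small error can show. Fibrillar collagen genes did not pass: Col1a1 had 0.44 ± 0.14 with an adjusted p of 0.135 and Col3a1 had −0.15 ± 0.33 with 0.825. The Col1a1 probe had mean Cy5 intensities of 27.5 in db/db mice and 25.2 in db/+ mice. These lay near the highest Cy5 intensity of any probe, 26.85 to 30.5 by array. Whether its signal was saturated was not tested. The list median was 0.54 in db/db mouse 1 and −0.15 in each of db/db mice 2 and 3, against −0.14, 0.11 and −0.05 in db/+ mice, the same mouse standing apart as for Pdgfrb and Zfp423. The count of called fibroblast genes was 10 without db/db mouse 1, 1 without db/db mouse 2, 2 without db/db mouse 3 and 1 without any one db/+ mouse.

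Committed preadipocyte and Areg genes (Areg being the CD142+ adipogenesis-regulatory cells) had a median of −0.51: of 14, 1 rose, 3 fell and 10 did not pass. Those that fell were Lpl, lipoprotein lipase, by 1.63 ± 0.28, Pparg, the master factor of adipogenesis, by 1.20 ± 0.20, and Vit, the matrix protein vitrin, by 1.18 ± 0.12. The gene that rose was Abcg1, a cholesterol exporter also found in macrophages, by 1.77 ± 0.22. Lpl and Pparg are also adipocyte genes, and the adipocyte list had a median of −1.71; their source was not tested. List medians were −0.21, −0.65 and −1.02 in db/db mice 1 to 3, against −0.02, 0.08 and −0.02 in db/+ mice. The count of called genes was 8 without db/db mouse 1 and 1 without db/db mouse 2 or 3, and it was 1, 0 and 0 without db/+ mouse 1, 2 and 3 in turn.

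**Figure D4:**
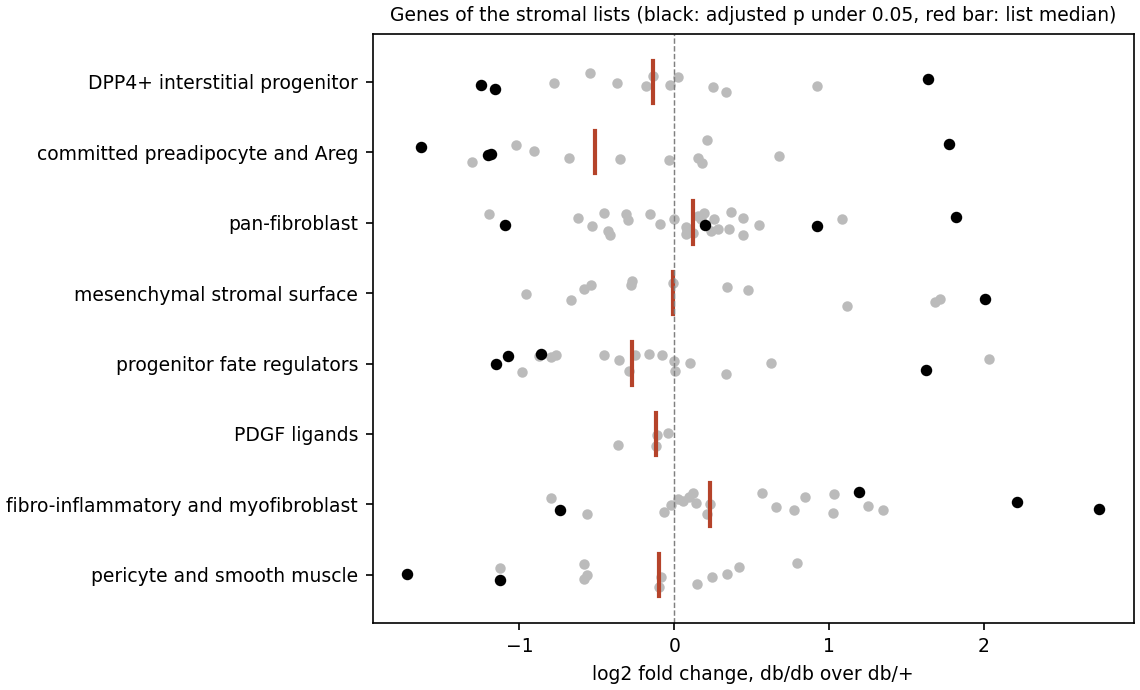
Each point is the difference between db/db and db/+ (horizontal axis, log2 scale) of 1 gene of 8 stromal lists (rows), black where called and grey otherwise, with a red bar at the list's median. Called genes lie on both sides of 0 in 5 of the 8 lists, and list medians run from −0.51 to 0.23.

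Regulators of progenitor fate, 20 genes, held 1 that rose, 3 that fell and 16 that did not pass, with a median of −0.27. Ccn5, the secreted protein WISP2 of mesenchymal precursors, rose by 1.62 ± 0.29. Zfp467, a zinc-finger factor that favours adipogenesis, fell by 1.15 ± 0.16, Nr3c1, the glucocorticoid receptor, by 1.07 ± 0.14, and Stat5a, a factor downstream of growth hormone, by 0.86 ± 0.11. Of 13 other stromal surface genes, 1 was called: Cd44, the hyaluronan receptor that leukocytes share, rose by 2.01 ± 0.32. Of 23 fibro-inflammatory and myofibroblast genes, 3 rose, 1 fell and 19 did not pass, with a median of 0.23. Ccl2, the monocyte chemoattractant, rose by 2.74 ± 0.30, Timp1, an inhibitor of metalloproteinases, by 2.21 ± 0.17 and Lox, the collagen crosslinking enzyme, by 1.19 ± 0.07. Has1, a hyaluronan synthase, was called lower at −0.74 ± 0.03 on intensities a few deposited steps above 0. Acta2, the smooth muscle actin of myofibroblasts, had 0.09 ± 0.22 with an adjusted p of 0.846. Without db/db mouse 1 the calls were 9 regulators, 7 surface and 6 fibro-inflammatory genes; without any other mouse they were 0 to 1, 0 and 1 to 3.

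**Figure D5:**
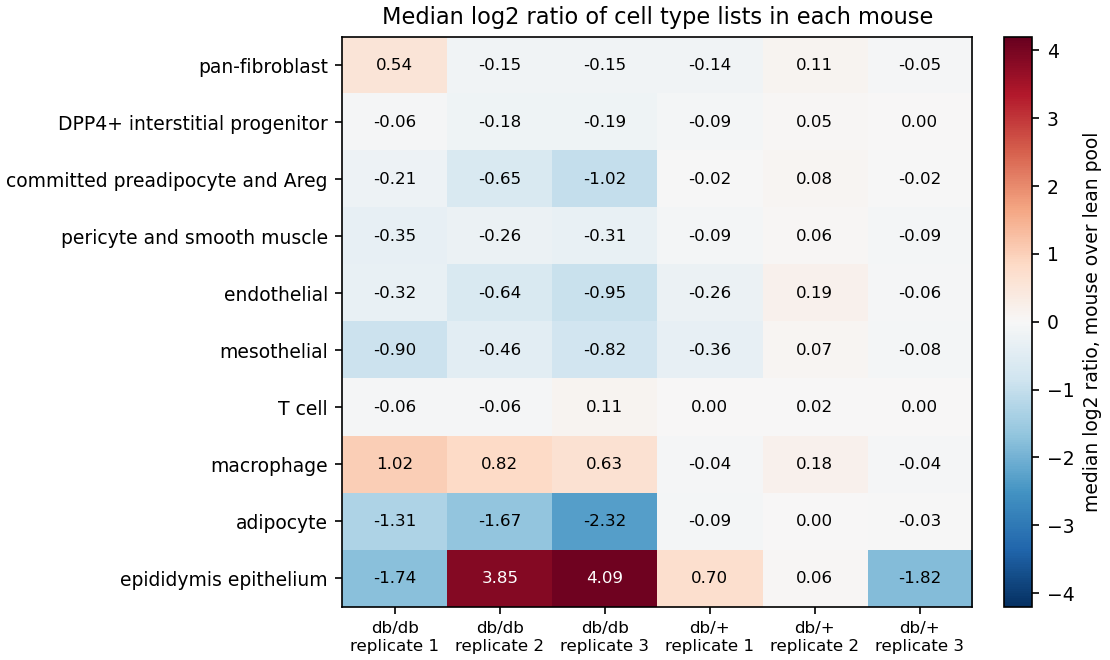
Median log2 ratio over the lean pool (colour and printed value) of 10 cell type lists (rows) in each mouse (columns, db/db left of db/+). The pan-fibroblast median is 0.54 in db/db replicate 1 and −0.15 in the other db/db mice, and the epididymis median is −1.74 in db/db replicate 1 and 3.85 and 4.09 in the others.

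As a check of the tissue's label, adipocyte genes had a summed Cy5 intensity of 43.0 to 49.2 in db/db mice and 129 to 163 in db/+ mice. Cidec had no value in db/db mouse 1 and db/+ mouse 2, so the sums of these mice leave it out. Where measured, its mean Cy5 intensity was 20.7 in db/db mice and 29.2 in db/+ mice, a large part of such a sum. Of 10 mesothelial genes, 0 were called, with a median of −0.41, 3 differences positive and 7 negative. Their summed Cy5 intensity was 16.2 to 31.0 in db/db mice and 21.6 to 23.3 in db/+ mice. The 3 positive genes were the keratins Krt8, Krt18 and Krt19, each lowest in db/db mouse 1, the db/db mouse low in epididymis transcripts. Among db/+ mice each keratin was lowest in mouse 2, at −1.33, −1.34 and −0.32. The epididymis median was instead lowest in db/+ mouse 3, at −1.82. The part of epididymis tissue in the keratin values was not tested.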

How the data were processed

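Total RNA of eWAT from 3 db/db and 3 db/+ mice was, per the labels' protocols, amplified in 2 rounds, and each mouse was hybridised to its own 2-colour Agilent array (6 in all); Agilent Feature Extraction 8.5.1.1 is named in the submitters' processing notes. The authors deposited 1 table with an intensity per channel, on an arbitrary normalized scale, and a p-value per array of mouse against pool, whose error model no source used here gives. They also deposited log10 ratios of mouse over pool, from which values of numbered replicates were taken after conversion to log2, since the db/db intensity columns carry no replicate number. For the markers, both sources differed by at most 0.00163 on the log2 scale. No source used here gives the background correction, the normalization or the genome build.

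Log2 ratios of Cy5 over Cy3 were tested without further scaling or filter, using limma 3.58.1 in R 4.3.3 (lmFit, eBayes; 3 against 3 arrays, no block); p-values were adjusted by Benjamini-Hochberg over all 17024 genes, with a threshold of 0.05. A gene was represented by its probe of highest mean intensity among those measured on 6 arrays. Symbols were updated through RefSeq tables (17207 probes current, 1790 by synonym, 318 by accession, 7 by accession alone, 2017 kept, 2217 unnamed). The fit was tested on simulated data. Mice are separate animals; the number of arrays limits the precision. The markers, lists and tests were chosen with earlier results of these data known. All markers were named; in each list, the called genes with the 3 largest differences were; for the 3 markers with the largest differences, the 3 nearest genes. Called macrophage and adipocyte genes are given as counts. Wnt2, Bgn, Vit, Stat5a, Ebf1, Ebf3, Has1, Col1a1, Col3a1, Acta2, Pdgfa and Pdgfd were named outside this rule after their values were seen. So were Krt8, Krt18 and Krt19. Python 3.11.15, numpy 2.4.6, pandas 2.3.3 and matplotlib 3.10.9 were used.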

Additional observations from a re-analysis of the deposited data

How the results depend on the processing

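The directions of Pdgfra, Ly6a, Ebf2 and Pi16 held in all 20 alternatives, some of which could not change them. Every array had a median ratio of 0, so centring the arrays repeated the reported fit. For Pdgfra, Ly6a and Ebf2 the groups did not overlap, so leaving out mice could not reverse the sign. The count of called markers was 1 of 8 in the reported fit, beside 6.68% of all genes. It was 2 with the series matrix (6.72% of all genes called), an offset of 0.05 on both intensities (7.23%) and a trend and robust variance model (7.42%). It was also 2 with the brightest probe by mean log2 intensity, chosen after seeing the data (6.76%). With a minimum of 0.1 in both channels it was 2 of 7 markers, beside 15.2% of 9781 genes. The count was 3 with array weights (20.6%), and 0 with quantile normalization (0%), Cy5 alone (2.83%) and the epididymis covariate (4.59%). Leaving out 1 mouse gave 0 to 2 called markers, 54 to 3417 called genes and 84 to 4045 called probes; all genes called were 3417 without db/db replicate 1. Called genes, 1138 in the reported fit, were 0 with quantile normalization by limma (2179 at an unadjusted p under 0.05), 481 with Cy5 alone, 3500 with array weights and 1791 with db/db replicate 1 alone. With the replicate number as a block, 0 genes (3085 at an unadjusted p under 0.05) and 0 markers were called (Ly6a at an adjusted p of 0.182); same-numbered mice are different animals, and their deviations correlated at −0.48, −0.41 and −0.02, so the numbers do not pair them. The Pdgfrb difference became −0.0200 with the mean of all probes and −0.00599 with array weights, and ranged from −0.15 to 0.31 when 1 mouse was left out. Dpp4 became 0.15 with quantile normalization, 0.0125 with loess and 0.0150 with the mean of all probes, and ranged from −0.15 to 0.0886. Thy1 became −0.0410 with Cy5 alone. Zfp423 became 0.16 with the epididymis covariate and 0.37 with db/db replicate 1 alone, and ranged from −0.32 to 0.16. The causes were not tested. Dim probes (Thy1, Dpp4) move in coarse steps, which limits what their ratios can show.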
